A study of Mus musculus with 8 samples.

Results

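The oligosaccharyltransferase subunits are the proteins of the endoplasmic reticulum complex that attaches N-linked glycans to newly made proteins. The 10 genes described are Stt3a, Stt3b, Ostc, Krtcap2, Tusc3, Magt1, Rpn1, Rpn2, Ddost and Dad1, taken by name from the array annotation. All 10 had a probe, among 30139 gene names on the array, and together they had 13 probes. Every one of the 10 passed the filter on dim probes, which 17856 genes passed. The list was chosen by the measured differences of Ostc, already known to be lower after both microRNAs, together with the other subunits of its complex. The differences below therefore describe these genes and are not independent support for them.

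Messenger RNA was measured in mSCC-20 cells, a mouse line of the FVB/N strain derived from squamous cell carcinoma of the skin. NC arrays 1 and 2 held RNA of cells given a control microRNA under the amount label 0.2 µg, alongside 2 arrays of cells given miR-193b-3p. NC arrays 3 and 4 carried the amount label 0.6 µg, alongside 2 arrays of cells given miR-365a-3p. Each microRNA was set against the NC arrays of its own amount, and no NC array served both comparisons. The labels do not say what the amount was of, how long the transfection lasted, or whether replicates were separate cultures, so the spread behind each p-value is that between these arrays and may be technical. All samples carried an RNA integrity number of 10.

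Oligosaccharyltransferase takes a glycan that has been assembled on the lipid dolichol and moves it to asparagine residues of proteins entering the endoplasmic reticulum. The catalytic subunit is either Stt3a, in a complex docked to the protein-conducting channel that works while the chain is still being made, or Stt3b, in a complex that can also act on finished chains. Ostc and Krtcap2 belong to the Stt3a complex, and Ostc takes part in its docking. Tusc3 and Magt1 are alternative thiol oxidoreductases of the Stt3b complex, and Rpn1, Rpn2, Ddost and Dad1 are shared by both.

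The microRNAs have different seeds, the bases that pair with target transcripts, so both sequences are shown with the seed (bases 2 to 8) in capitals. They are the RefSeq entries of build GRCm38.p6.
miR-193b-3p: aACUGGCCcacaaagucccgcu
miR-365-3p: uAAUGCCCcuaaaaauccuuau
MiR-193b-3p lies at chr16:13449570-13449591 on the plus strand. RefSeq lists miR-365-3p, which the labels call miR-365a-3p, with the same letters at chr16:13453895-13453916 and chr11:79726467-79726488, both on the plus strand.

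The subunits that passed the test were Ostc and Rpn1, and the probes that measured them are printed in sense orientation, 5′ to 3′, with no part marked.
Ostc probe: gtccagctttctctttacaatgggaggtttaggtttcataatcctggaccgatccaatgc
Rpn1 probe: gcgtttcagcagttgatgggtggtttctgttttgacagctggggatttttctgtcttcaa
In the array annotation, on mm9, the Ostc probe lies at chr3:130406339-130406398 on the minus strand and the Rpn1 probe at chr6:88053786-88053845 on the plus strand. Whether these positions are in coding or untranslated sequence was not analysed here. The DNA letters complementary to the seeds, GGCCAGT for miR-193b and GGGCATT for miR-365a, were searched in sense orientation in the 60-base probes. They occurred in 0.294% and 0.312% of all 39429 probes and in 0 of the 13 subunit probes, which says only that these letters are not in these windows.

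Levels are log2 processed signal relative to the 75th percentile of the array's gene spots, and a difference of 1 is 2-fold. The word called marks a gene with an adjusted p under 0.05 from limma with Benjamini-Hochberg adjustment over all genes tested. Levels of different genes come from different probes and are not set against each other. In bulk RNA, fewer cells of a type and less RNA per cell cannot be told apart.

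**Figure D1:**
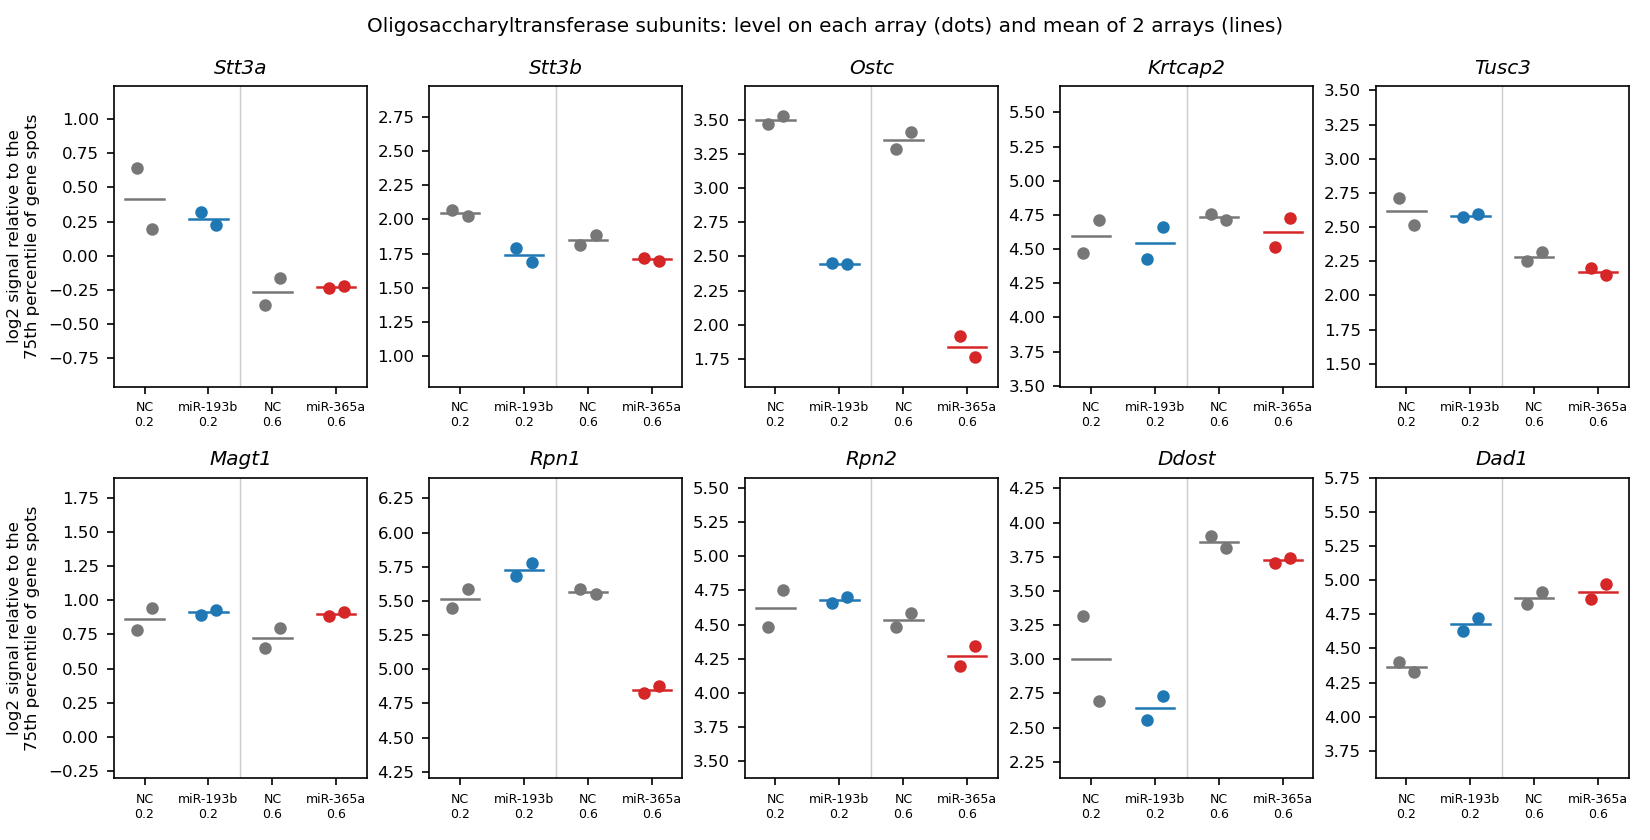
Level of each subunit gene on each array, as log2 signal relative to the 75th percentile of gene spots, for NC and microRNA arrays under the amount labels 0.2 and 0.6 µg. Dots are arrays, lines are means of 2 arrays, and every panel spans the same number of log2 units. Ostc is lower on all 4 microRNA arrays than on any NC array, and Rpn1 is lower on both miR-365a arrays.

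Ostc, the small subunit of the Stt3a complex, was lower after both microRNAs. Its level was 3.47 and 3.53 on NC arrays 1 and 2 and 2.45 on each miR-193b array. On NC arrays 3 and 4 it was 3.29 and 3.41, against 1.92 and 1.77 on the miR-365a arrays. The 4 microRNA arrays lay below all 4 NC arrays with no overlap, and the NC arrays of the amount labels differed by -0.15 ± 0.11 (0.6 minus 0.2 µg, SE, adjusted p = 0.398). Before scaling between arrays, the processed signal ran from 14942 to 18116 on the NC arrays and from 4825 to 6850 on the microRNA arrays. These signals also carry the brightness of each array. The 75th percentile was 1635 and 1384 on NC arrays 1 and 2 and 1176 and 1125 on the miR-193b arrays. It was 1634 and 1405 on NC arrays 3 and 4 and 1816 and 1419 on the miR-365a arrays.

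After miR-193b, Ostc fell 2.07-fold, a log2 difference of -1.05 ± 0.11 (SE, n = 2 against 2, adjusted p = 0.0197, 95% interval -1.33 to -0.77). That call was lost in 8 of 19 refits, with an adjusted p of up to 0.134, although the difference stayed between -1.12 and -1.02. Leaving out NC array 1 gave an adjusted p of 0.0540, leaving out either miR-193b array 0.0675 and 0.0683, and leaving out either miR-365a array 0.0543. The difference was -1.02 within slide 1 and -1.08 across slides 2 and 3. Among the genes tested, 316, or 1.77%, had a lower log2 difference than Ostc.

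After miR-365a, Ostc fell 2.85-fold, a log2 difference of -1.51 ± 0.11 (SE, n = 2 against 2, adjusted p = 0.00300, 95% interval -1.79 to -1.23). This call held in all 19 refits, with differences between -1.58 and -1.43. The refits were not 19 separate checks. For miR-365a, the set fitted alone and slide as a fixed block were the same fit. Leaving out NC array 1 or 2, or either miR-193b array, changed only the estimate of the spread. A lower difference was found for 241 genes, or 1.35% of those tested. All miR-365a arrays and their NC arrays were on one slide.

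The effect on Ostc was 0.46 ± 0.16 higher, that is a smaller drop, for miR-193b than for miR-365a (SE, 95% interval 0.07 to 0.85). It did not pass the test over all genes (adjusted p = 0.188). MicroRNA and amount label changed together between these comparisons, so their parts in that difference cannot be told apart. In order of level, Ostc was lowest on the miR-365a arrays, next on the miR-193b arrays and higher on the NC arrays of 0.6 and then 0.2 µg, the last groups not differing beyond their spread. Over all genes, 0.554% were called at least 2-fold lower after miR-193b and 3.81% after miR-365a. Genes called lower after both made up 0.297%, and 10 genes, or 0.056%, were called at least 2-fold lower after both. Ostc was chosen for this pattern, and nothing is read from its place among them.

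Taken within each array, the level of Ostc less the mean of the other 9 subunits does not depend on the scaling between arrays. Only its change can be read, since its level is set by the brightness of different probes. It changed by -1.02 after miR-193b and by -1.37 after miR-365a, while the mean of the 9 itself moved by -0.03 and -0.14. The list was chosen by the Ostc values, so this is a description.

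Of the 10 subunits, Ostc alone was called after miR-193b, and Ostc and Rpn1 were called after miR-365a, all lower. Over all genes tested, 1.15% were called lower and 1.75% higher after miR-193b, and 7.99% lower and 7.77% higher after miR-365a. In either direction 2.91% and 15.8% of genes were called. An unadjusted p under 0.05 was found for 3 and 2 of the 10 subunits, beside 21.3% and 31.2% of all genes tested. The median difference of the 10 was -0.04 after miR-193b and -0.12 after miR-365a, beside 0.05 and 0.02 for all genes tested.

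**Figure D2:**
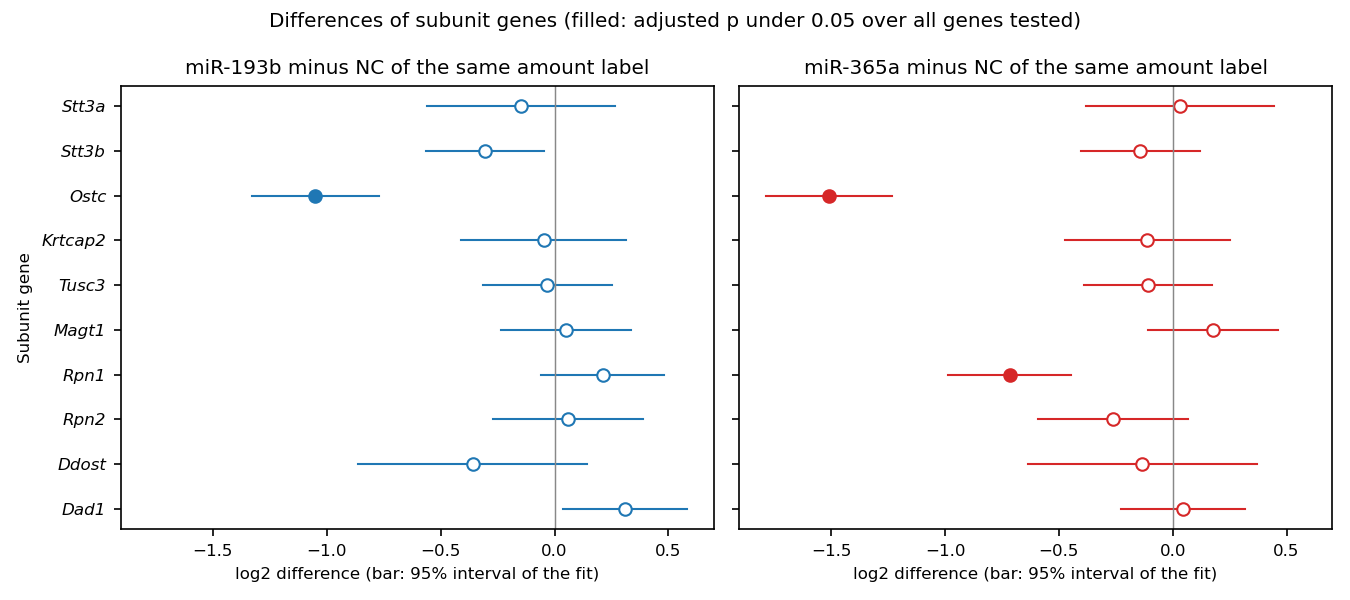
Log2 difference of each subunit gene between microRNA and NC arrays of the same amount label, with the 95% interval of the limma fit, for miR-193b and miR-365a. Filled dots have an adjusted p under 0.05 over all genes tested: Ostc at -1.05 and -1.51, and Rpn1 at -0.72 after miR-365a.

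Rpn1, ribophorin I, is a shared subunit that helps present client proteins to the catalytic centre. Its level was 5.45 and 5.59 on NC arrays 1 and 2 and 5.68 and 5.78 on the miR-193b arrays. On NC arrays 3 and 4 it was 5.59 and 5.55, and on the miR-365a arrays 4.83 and 4.87. The miR-365a arrays were the lowest of the 8, and the miR-193b arrays the highest. Rpn1 fell 1.64-fold after miR-365a, a log2 difference of -0.72 ± 0.11 (SE, adjusted p = 0.0119). After miR-193b the difference was 0.21 ± 0.11 and was not called (adjusted p = 0.326).

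For Rpn1 the effects of the microRNAs differed by 0.93 ± 0.16 (miR-193b minus miR-365a, SE, adjusted p = 0.0368). Over all genes tested, 3.49% were called for this difference. It stayed between 0.73 and 1.00 under other processing, but lost its call in 11 of 18 refits, among them each of the 8 that left out an array (adjusted p between 0.0503 and 0.133). The fall after miR-365a was no longer called without NC array 3 (adjusted p = 0.0700) or without miR-365a array 1 (0.0782) or 2 (0.0699), and the difference stayed between -0.74 and -0.68.

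**Figure D3:**
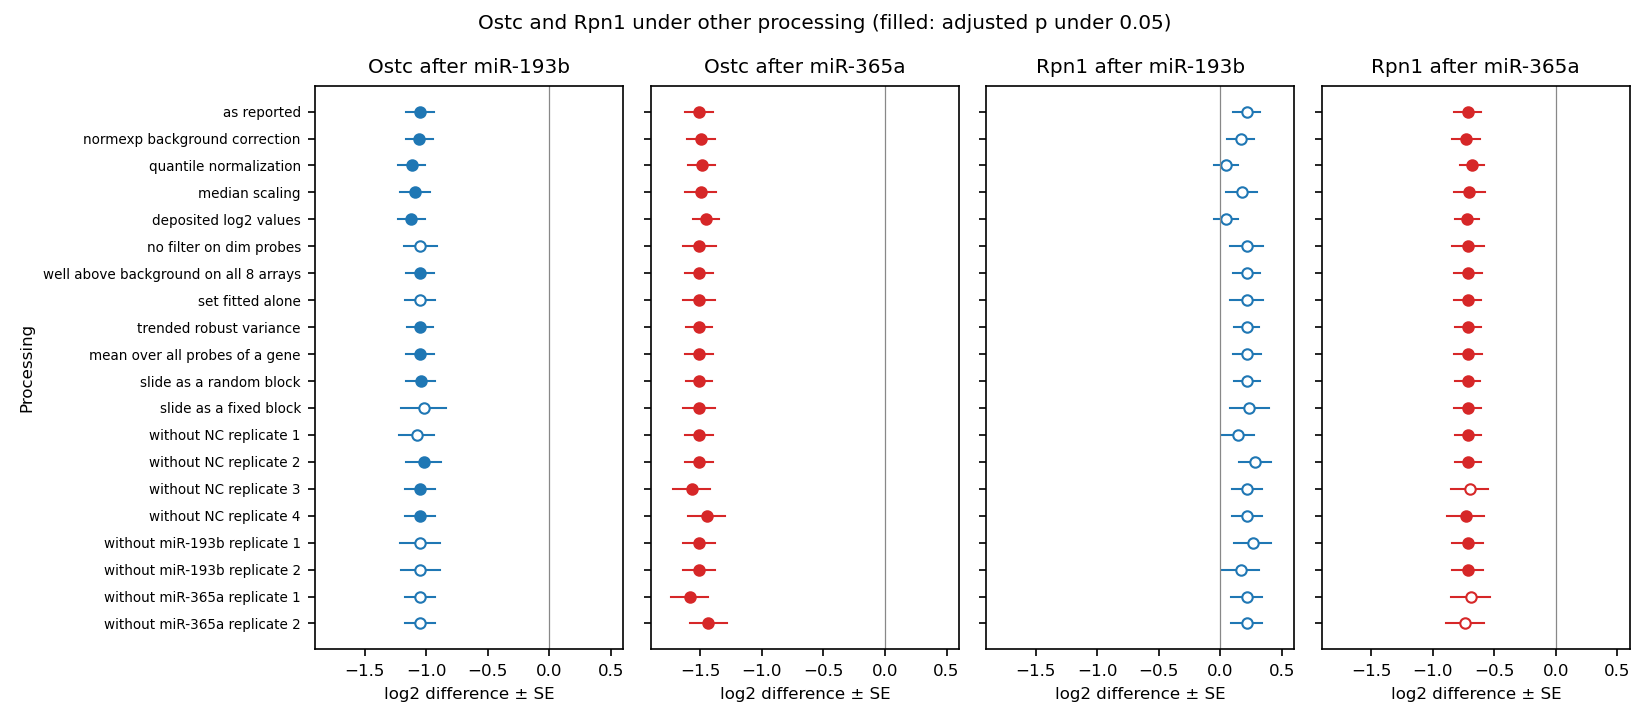
Log2 difference ± SE of Ostc and Rpn1 after each microRNA under the reported processing and each alternative refit, with filled dots at an adjusted p under 0.05. Ostc lies between -1.12 and -1.02 after miR-193b and between -1.58 and -1.43 after miR-365a in every refit shown, while its miR-193b call is lost in 8 of them.

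The catalytic subunits were not called in either comparison. Stt3a was at 0.64 and 0.20 on NC arrays 1 and 2 and at 0.32 and 0.22 on the miR-193b arrays. In the 0.6 µg arrays it was at -0.36 and -0.17 for NC and at -0.24 and -0.22 for miR-365a. The groups overlapped in both comparisons, with differences of -0.15 ± 0.17 and 0.03 ± 0.17 (SE).

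Stt3b was at 2.07 and 2.02 on NC arrays 1 and 2 against 1.79 and 1.69 after miR-193b, and at 1.81 and 1.89 on NC arrays 3 and 4 against 1.72 and 1.69 after miR-365a. Its microRNA arrays lay below their NC arrays in both comparisons. The differences were -0.31 ± 0.11 (adjusted p = 0.177, 95% interval -0.56 to -0.05) and -0.14 ± 0.11 (adjusted p = 0.443). A second Stt3b probe gave -0.24 and -0.13.

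Krtcap2, the other small subunit of the Stt3a complex, did not pass the test. NC array 1 was at 4.47 and the other NC arrays between 4.71 and 4.76. The miR-193b arrays were at 4.43 and 4.66 and the miR-365a arrays at 4.52 and 4.73, overlapping their NC arrays in both comparisons. Its differences were -0.05 (95% interval -0.41 to 0.31) after miR-193b and -0.11 (-0.47 to 0.25) after miR-365a. The lower ends of both intervals lie above the difference found for Ostc in the same comparison. Ostc was chosen for its difference and no contrast between these genes was fitted, so this is a description and not a test.

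Tusc3 and Magt1, the oxidoreductases of the Stt3b complex, did not pass the test either. Tusc3 was at 2.71 and 2.51 on NC arrays 1 and 2, at 2.57 and 2.59 after miR-193b, at 2.25 and 2.31 on NC arrays 3 and 4 and at 2.20 and 2.15 after miR-365a. Magt1 was at 0.78 and 0.94, 0.89 and 0.93, 0.65 and 0.80, and 0.89 and 0.92 in the same order. Tusc3 lay just below and Magt1 just above the NC arrays after miR-365a, and both overlapped them after miR-193b. Tusc3 differed by -0.03 ± 0.12 after miR-193b and by -0.11 ± 0.12 after miR-365a (SE). Magt1 differed by 0.05 ± 0.12 and 0.18 ± 0.12, and a second Magt1 probe gave 0.11 and 0.25. Adjusted p of the main probes was between 0.380 and 0.902.

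Among the other shared subunits, Rpn2 was at 4.48 and 4.59 on NC arrays 3 and 4 and at 4.20 and 4.35 on the miR-365a arrays. Those arrays did not overlap, and the difference of -0.26 ± 0.14 (SE) was not called (adjusted p = 0.253). After miR-193b Rpn2 differed by 0.06 ± 0.14.

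Dad1, a small subunit first known as a defender against cell death, was at 4.40 and 4.33 on NC arrays 1 and 2 and at 4.63 and 4.72 on the miR-193b arrays. These did not overlap, and the difference of 0.31 ± 0.11 (SE) had an adjusted p of 0.187. After miR-365a it was 0.04 ± 0.11. A second, dim Dad1 probe, well above background on 6 of 8 arrays, gave 0.24 and -0.17 and was not called.

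Ddost, the subunit also called OST48, was at 3.31 and 2.70 on NC arrays 1 and 2 and at 2.56 and 2.73 on the miR-193b arrays. NC array 1 stood above the other 3, so the difference of -0.36 ± 0.21 (SE, adjusted p = 0.367) was -0.76 within slide 1 and 0.04 across slides 2 and 3. On NC arrays 3 and 4 Ddost was at 3.90 and 3.81 and on the miR-365a arrays at 3.70 and 3.74, a difference of -0.13 ± 0.21.

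The NC arrays themselves differed between the amount labels for 3 subunits. Ddost was 0.85 and Dad1 0.50 higher under 0.6 µg, and Stt3a was 0.68 higher under 0.2 µg, a difference coded as -0.68 (adjusted p = 0.0427, 0.0334 and 0.0462). The background for this contrast was 15.5% of genes. Amount label, slide and annotation version changed together between the sets, and their parts cannot be told apart.

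Arrays of miR-193b did not overlap their NC arrays for Rpn1 and Dad1, which were higher, and for Ostc and Stt3b, which were lower. Arrays of miR-365a did not overlap for Magt1, which was higher, and for 6 subunits that were lower: Ostc, Rpn1, Rpn2, Stt3b, Tusc3 and Ddost. Over all genes with every array measured, the groups did not overlap for 52.1% after miR-193b and for 61.6% after miR-365a. Lower arrays made up 22.2% and 27.9% of genes and higher arrays 29.9% and 33.7%.

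Other genes of the pathway were followed as lists. Ost4 and Tmem258, small subunits outside the 10, were not called: Ost4 differed by -0.16 after miR-193b and 0.27 after miR-365a, and Tmem258 by 0.27 and 0.05. Upstream, a list of 28 genes covers assembly of the lipid-linked glycan and the supply of its sugar and dolichol precursors. After miR-365a 8 of them fell and 0 rose, with a median of -0.17, and after miR-193b 0 were called by limma and 4 of the 28 had an unadjusted p under 0.05, beside 21.3% of all genes.

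Those that fell after miR-365a included Pmm1, a phosphomannomutase, at -1.88 ± 0.11, and Alg8, a glucosyltransferase that works on the growing glycan, at -1.34 ± 0.15 (SE). Alg10b, which adds the last glucose, fell by 1.08 on the log2 scale. Alg6, another glucosyltransferase, fell by 1.71 on its brighter probe, and its second probe gave -1.55 ± 1.12, not called. A second Pmm1 probe gave -1.75 and was called too. Pmm1 and Pmm2 act in the supply of sugar precursors, and Pmm2 differed by -0.43 ± 0.19 (SE) and was not called.

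The channel and signal peptidase list had 17 genes, among them those of the protein-conducting channel that Stt3a complexes dock to. After miR-365a 5 fell and 0 rose, with a median of -0.14. The Sec61 genes, which encode the channel itself, were not called. After miR-365a Sec61a1 differed by -0.12, Sec61a2 by 0.04, Sec61b by -0.03 and Sec61g by -0.28. Tram1, a channel partner of nascent chains, fell 4.39-fold. Spcs3, a signal peptidase subunit, fell 2.62-fold on its brighter probe, a log2 difference of -1.39. A second Spcs3 probe gave -0.84 and was called too. Sec62, a channel accessory, fell 2.02-fold. Ssr3 of the translocon-associated protein complex fell 1.61-fold on its brighter probe, while its second probe gave -0.41 and was not called. After miR-193b 0 of the 17 were called by limma and 4 had an unadjusted p under 0.05, beside 21.3% of all genes, with a median of 0.19.

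Downstream, a list of 16 genes covers glycan trimming in the endoplasmic reticulum, glycoprotein folding and the handling of misfolded glycoproteins. After miR-365a 6 rose and 2 fell. Those that rose were Uggt1, Uggt2, Canx, Ngly1, Fbxo6 and Os9, so they are not all trimming or folding genes, and those that fell were Edem3 and Erlec1. Canx, the lectin chaperone calnexin, rose 1.38-fold. Ngly1, which removes glycans from misfolded proteins, rose 2.32-fold on a dim probe, a log2 difference of 1.21. Its level was -5.79 and -5.38 on NC arrays 3 and 4. The difference was 0.44 and not called with normexp background correction, and 0.50 in the deposited values, so its size at this brightness is uncertain. Uggt1, the glucosyltransferase that senses misfolding, rose 1.84-fold after miR-193b and 1.53-fold after miR-365a, but its second probe was not called in either (0.75 and 0.22). The miR-193b call of Uggt1, the single one in this list, was lost in 10 of 19 refits, with an adjusted p of up to 0.141. These included all refits that left out an array except that without NC array 2. The value stayed between 0.78 and 0.95. Its relative Uggt2 rose 1.62-fold after miR-365a on one probe, and another probe gave -0.04. The miR-365a calls of Canx, Ngly1, Uggt1 and Uggt2 were lost without miR-365a array 1, without miR-365a array 2 and without NC array 3.

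In the Golgi list of 15 genes, 5 fell and 0 rose after miR-365a, and after miR-193b 0 were called by limma while 2 of the 15 had an unadjusted p under 0.05, beside 21.3% of all genes. Mgat1, which starts complex glycans, fell 2.27-fold. Man1a2, a mannosidase, and B4galt1, a galactosyltransferase, fell by 1.08 and 0.57 on the log2 scale, and their second probes gave -0.18 and -0.24, not called. The call of B4galt1 was lost in 10 of 19 refits and that of Man1a2 in 1. Mgat5, a branching enzyme, had a dim probe, well above background on 1 of the 2 miR-365a arrays, and differed by -0.96. That difference was -0.38 with normexp and -0.21 in the deposited values, and its call was lost in 7 of 18 refits, so the measured size at this brightness is uncertain. Leaving out Mgat5, 4 Golgi genes fell.

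**Figure D4:**
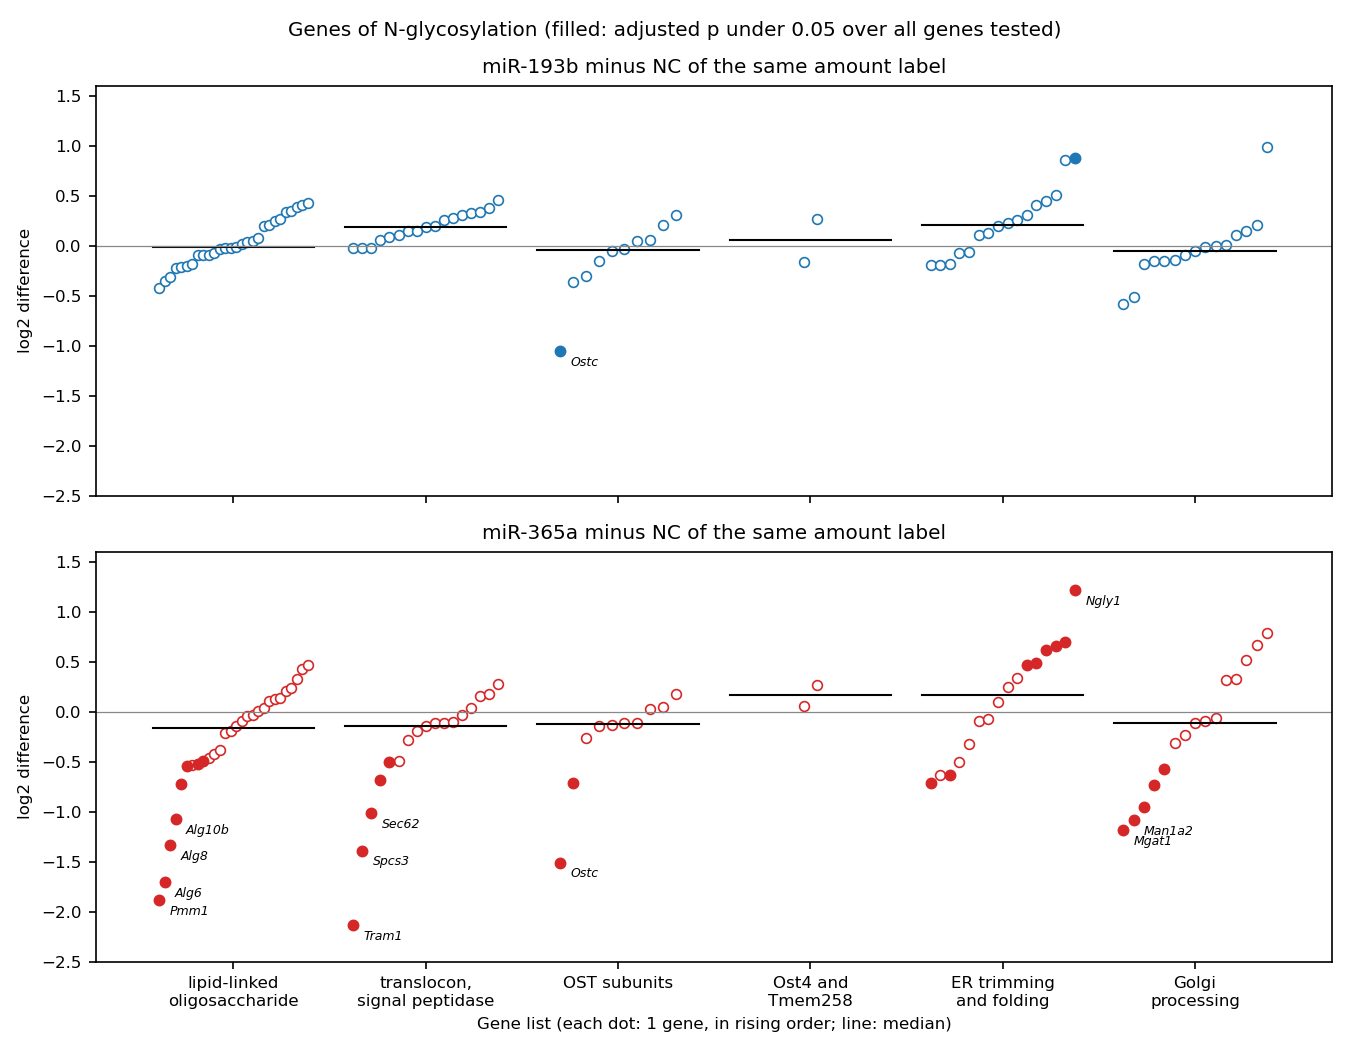
Log2 difference of each gene in the 6 N-glycosylation lists after miR-193b and after miR-365a, each dot a gene, filled at an adjusted p under 0.05 over all genes tested, with a line at the list's median. After miR-193b the filled dots are Ostc and Uggt1, whose calls were lost in 8 and 10 of 19 refits, and after miR-365a they include 8 of 28 lipid-linked glycan genes and 5 of 17 channel and signal peptidase genes.

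The list counts after miR-365a depended on single arrays and on processing. Leaving out each array in turn gave 3 to 8 calls among the lipid-linked glycan genes, 2 to 5 in the channel list, 0 to 8 in the trimming list and 1 to 5 in the Golgi list. Without miR-365a array 2 the counts were 3, 2, 0 and 1, without miR-365a array 1 they were 4, 3, 0 and 2, without NC array 3 they were 3, 3, 1 and 3, and without NC array 4 they were 5, 3, 2 and 2. Leaving out either miR-193b array, which enters only the estimate of the spread, gave 5, 4, 3 and 3. Without a filter on dim probes they were 5, 3, 1 and 2, and with the set fitted alone or slide as a fixed block 5, 4, 3 and 4. Calls of Pmm1, Alg8, Tram1, Spcs3 and Mgat1 held in all 19 refits. Those of Ssr3, Alg10b, Alg6 and Sec62 were lost in 5, 2, 1 and 1 of the 19. Shares called in the lists stand beside the 15.8% of all genes, and no list was tested against it.

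The pattern of Ostc over the 8 arrays was compared with that of 17784 genes measured on all of them, after subtracting the NC mean of each amount label. The genes most like it were an unnamed probe (A_55_P2079471, r = 0.998), Six4 (0.995), Aurka (0.990), Ap3s2 (0.989) and Il24 (0.989). Aurka, the mitotic kinase Aurora A, differed by -0.57 after miR-193b (not called, adjusted p = 0.0678) and fell by 0.93 after miR-365a. Six4, a homeobox factor, fell by 0.85 and 1.12. Among the other subunits the correlation ran from -0.69 for Magt1 to 0.73 for Stt3b. These correlations are across 8 arrays that share their groups, and are given as description.

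The arrays had 43020 gene spots each, of which 51.4% to 54.6% were well above background under 0.2 µg and 58.9% to 62.1% under 0.6 µg, and 0 were saturated. All 10 subunits' main probes were well above background on all 8 arrays, and the number of arrays limits the precision. With 2 arrays against 2, an exact permutation test of a single gene could not go below p = 0.333. Of 12 keratinocyte and squamous carcinoma markers, among them Krt5 and Krt14, all 12 were well above background on all 8 arrays. The same held for 1 of 6 fibroblast markers, 2 of 6 leukocyte, 2 of 6 endothelial and 1 of 5 melanocyte markers, while Col3a1, Dcn, Lum, Laptm5, Lyz2, Cdh5, Tek, Emcn and Dct were above it on none.

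The summed signal of each marker list is given in multiples of the array's 75th percentile. Keratinocyte markers summed to 720 to 727 on NC arrays and 908 to 923 on miR-193b arrays under 0.2 µg, and to 779 to 872 on NC and 787 to 930 on miR-365a arrays under 0.6 µg. Leukocyte markers summed to 0.298 to 0.339 and 0.339 to 0.381, and to 0.460 to 0.572 and 0.635 to 0.700, in the same order. Fibroblast markers summed to 0.103 to 0.118 and 0.126 to 0.130, and to 0.0774 to 0.109 and 0.0692 to 0.0967. The keratinocyte and fibroblast sums were higher on both miR-193b arrays than on their NC arrays, and the leukocyte sum on both miR-365a arrays. Endothelial markers summed to 1.21 to 1.65 and 1.35 to 1.57, and to 3.48 to 4.40 and 3.58 to 4.89. Melanocyte markers summed to 0.202 to 0.242 and 0.211 to 0.344, and to 0.297 to 0.386 and 0.361 to 0.447. The part of these sums in the subunit values was not tested.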

How the data were processed

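The scanner files hold intensity values, per the file headers from Agilent Feature Extraction 10.7.3.1 with background subtraction and detrending inside each array. The deposited log2 table, whose array medians lie between 7.04 and 7.05, was used as an alternative. Its background correction is not given in the sources used here; per the submitters' processing notes, limma was among the tools.

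Spots marked as outliers by the scanner software were removed, and each array's log2 signal was expressed relative to its 75th percentile. The brightest probe over the 8 arrays represented a gene. Names came from accessions, current symbols and synonyms of RefSeq, and otherwise from the files. To enter the fit, a probe had to be well above background on both arrays of 1 or more of the 4 groups by transfection and amount. The model (limma 3.58.1 in R 4.3.3, lmFit and eBayes) took amount, miR-193b and miR-365a as terms over 8 arrays, with 4 residual and 2.31 prior degrees of freedom. Benjamini-Hochberg adjustment covered every gene in the fit. The fit was first tested on simulated data, with 67 genes changed 1.41-fold, 67 changed 2-fold and 66 changed 4-fold per comparison. Of these, 0%, 32.84% and 83.33% were called for miR-193b, and 0%, 19.4% and 87.88% for miR-365a. The changed genes were few among the 17785 simulated, whereas 2814 genes were called after miR-365a in the data. The adjusted p depends on how many genes change, so these shares need not hold for the data. Changes of less than 2-fold were called there too, such as Rpn1 at 1.64-fold after miR-365a. In the simulated setting most changes of 2-fold or less were missed, and a gene that was not called can still have changed.

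The members, the lists and the rule for named genes (all members; up to 4 called genes per list and comparison by p; the 5 genes most like the subunit of largest difference) were chosen with earlier results of these data known.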

Additional observations from a re-analysis of the deposited data

Results flagged for a closer look

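Krtcap2 had 1 of its 4 NC arrays apart from the others. NC array 1 was at 4.47 and the other NC arrays at 4.71 to 4.76, so the gap made up 0.837 of the range, above Dixon's 95% critical value for 4 samples. Chance gives such a gap in about 1 group in 20, and 10 subunits were examined.

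For Rpn1 the difference from NC in the miR-193b comparison was tested against that in the miR-365a comparison. The first minus the second was 0.928 on the log2 scale (limma, adjusted p = 0.0368). That call was lost in 11 of 18 refits. Over 18 other fits the adjusted p ran from 0.0111 to 0.140. The miR-193b arrays were on slides 1 and 3 and the miR-365a arrays on slide 4, under different amount labels, so microRNA, amount and slide cannot be told apart.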

How the results depend on the processing

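Of 400 values of single subunits under other processing, 370 counted as unchanged, 11 lost the call, 17 changed sign and 2 moved by more than the SE of the main fit. For refits, unchanged meant the same direction and the same side of the threshold. The miR-193b differences within a slide or across slides 2 and 3 had no adjusted p, so no threshold applied. For them, unchanged meant the same direction and a shift smaller than that SE. The size of a shift was judged only for these differences. Calls were lost for Ostc after miR-193b and Rpn1 after miR-365a. Besides the single arrays named above, the Ostc call went without a filter on dim probes (limma, adjusted p = 0.0838), with the set fitted alone (0.134) and with slide as a fixed block. With slide as a fixed block, the miR-193b effect comes from slide 1 alone, the only slide with both an NC and a miR-193b array. That fit therefore repeats the difference within slide 1. Sign changes occurred only in differences that were not called. Rpn2 after miR-193b became -0.014 with normexp, -0.055 with quantile normalization, -0.087 with the deposited values and -0.053 across slides 2 and 3, and ran from -0.076 to 0.194 when each array was left out. Slides 2 and 3 gave Stt3a 0.028, Tusc3 0.080, Magt1 -0.013 and Ddost 0.036 after miR-193b. With each array left out, Stt3a ran from -0.370 to 0.075, Tusc3 from -0.131 to 0.069, Magt1 from -0.031 to 0.130 and Krtcap2 from -0.168 to 0.071. After miR-365a, Dad1 was -0.062 as the mean of its probes and ran from -0.010 to 0.100 with each array left out, and Stt3a ran from -0.063 to 0.129. The cause was not tested.

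Subunits called after miR-193b were 0 without a filter, with the set fitted alone and with slide as a fixed block (limma, with 1, 1 and 2 at an unadjusted p under 0.05), and 0 to 1 when each array was left out. After miR-365a they were 1 to 2 when each array was left out. Over all genes, 519 were called after miR-193b. The count was 975 with normexp, 848 with the deposited values, 11 without a filter, 1042 with trended robust variance, 320 with the mean over probes and 171 with slide as a fixed block. It was 871 when every array had to be well above background, and 0 with the set fitted alone, where 3108 genes had an unadjusted p under 0.05. Leaving out each array gave 29 to 281. After miR-365a 2814 were called, 1057 without a filter and 588 to 2831 with each array left out. For the difference of effects 623 were called, against 1048 with normexp, 989 with the deposited values, 0 without a filter (limma, 3491 at an unadjusted p under 0.05), 1063 when every array had to be well above background, 1129 with trended variance, 1017 with slide as a random block and 133 as a fixed block. Leaving out each array gave 0 to 556, the 0 without NC array 4, where 3109 had an unadjusted p under 0.05. Higher genes made up 60.3% of miR-193b calls, 70.6% with normexp, which moved the median of all genes to 0.12, and 90.9% without a filter. For miR-365a that share was 49.3%, and 37.4% without a filter. Without NC array 1 the miR-193b calls were 59 higher and 77 lower (43.4% higher), and without either miR-193b array 72.8% and 76.0% were higher. For miR-365a 27.2% and 32.1% were higher without miR-365a arrays 1 and 2, and 30.9% without NC array 3. List counts, named list genes and the Rpn1 and Ostc differences of effects under these settings were added after seeing the data. No paired analysis was possible because replicate numbers follow only the order of deposit.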
